A study of Rattus norvegicus with 12 samples.

Results

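The 9 transcripts described here are messenger RNAs of the mitochondrial genome that encode core subunits of the respiratory chain and of ATP synthase. Other messengers of that genome were not analysed here. Statements below on the messengers of a complex cover only those among the 9. They were taken by identifier from the 25908 genes listed: Mt-nd1 (ENSRNOG00000030644), Mt-nd2 (ENSRNOG00000031033), Mt-nd3 (ENSRNOG00000033615) and Mt-nd5 (ENSRNOG00000029971) of complex I, Mt-cyb (ENSRNOG00000031766) of complex III, Mt-co1 (ENSRNOG00000034234), Mt-co2 (ENSRNOG00000030371) and Mt-co3 (ENSRNOG00000030700) of complex IV, and Mt-atp6 (ENSRNOG00000031979) of ATP synthase. The deposited values carry no gene names, and the pairing of identifier and name was supplied with the list of members. The 4 groups were brain and testis of male adult Sprague Dawley rats, 15 weeks old, each tissue from wild-type rats and from rats of the hDNMT3A genotype, which carry a human DNMT3A transgene. DNMT3A is an enzyme that adds methyl groups to cytosines in DNA. Each group had 3 libraries. The labels do not say which promoter drives the transgene, in which cells it is active, or whether the libraries of a group came from separate animals, so the p-values below measure only the spread between these libraries, which may be technical.

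The mitochondrial genome is a small circle present in many copies per cell. Each strand is transcribed as a long precursor that is cut, mostly at transfer RNAs, into the individual messengers, so that the levels of these messengers depend on a shared precursor and on how long each one lasts. The proteins they encode sit in the inner membrane beside many subunits made from nuclear genes, and together they pass electrons to oxygen and make ATP. Neurons depend heavily on this route. In testis, germ cells change their mitochondria and their fuel use as they mature.

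Recovered depth was 14004547 to 16112149 reads per library. Nearly all of these reads lay in listed genes, so the shares of reads below are in effect shares of reads assigned to genes. Each of the 9 mRNAs had between 1984 and 384460 reads in each library, and at the lowest of these the counting error was 2.25%. The spread between replicates, as a coefficient of variation (the SD as a percent of the mean), ran from 1.51% to 21.3%, so replicate spread rather than depth set the precision of most values. The summed RNA of 203 testis-restricted genes (testis mean 100 FPKM or more, brain median 0.5 FPKM or less) was found in wild-type brain replicate 2 at 1.59% of its testis level, against 0.0511% to 0.330% in the other brain libraries. Markers of brain and testis cell types were not analysed here, since identifiers and gene names were not paired.

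The 9 mRNAs took a larger part of the brain libraries than of the testis libraries. They held 8.33% ± 0.462 of the recovered reads in wild-type brain and 7.54% ± 0.368 in transgenic brain (SD, n = 3 each). In wild-type testis they held 1.73% ± 0.0819, and in transgenic testis 1.84% ± 0.261 (SD, n = 3 each). The lowest brain library stood at 7.19% (95% exact Clopper-Pearson interval 7.18% to 7.21%, counting error only) and the highest testis library at 2.08% (2.07% to 2.08%), so the tissues did not overlap. A share of reads also depends on how much RNA of other genes a library holds. In these pieces of tissue, fewer cells rich in mitochondria, less mitochondrial RNA per cell and more RNA of other genes cannot be told apart.

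**Figure D1:**
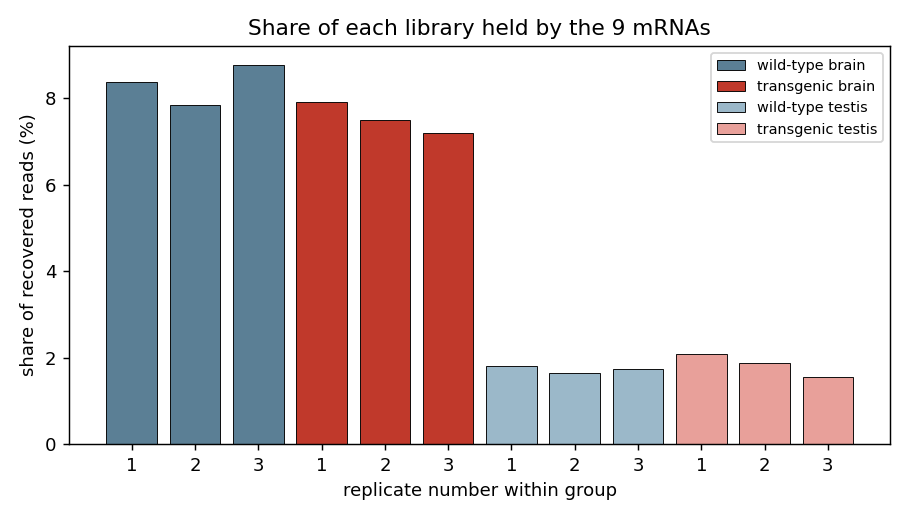
Share of the recovered reads of each library, in percent, held by the 9 mitochondrially encoded mRNAs, with 1 bar per library grouped by tissue and genotype. The 6 brain bars lie between 7.19% and 8.78% and the 6 testis bars between 1.56% and 2.08%.

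Mt-co1 and Mt-co3, of complex IV, had the highest mean levels of the set in each of the 4 groups. Mt-co1 encodes the catalytic subunit of cytochrome c oxidase, which holds the site where oxygen is reduced. It stood at 16106, 14152 and 16361 FPKM in wild-type brain and at 14798, 14202 and 13582 FPKM in transgenic brain (replicates 1, 2 and 3). In testis it stood at 3908, 3427 and 3597 FPKM in wild type and at 4223, 3915 and 3286 FPKM in transgenic rats. It was the most abundant transcript of all genes in each of the 6 brain libraries, and ranked 7 in each of the 6 testis libraries.

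Mt-co3 encodes another core subunit of the same enzyme and was close to Mt-co1. Its brain values were 14674, 13913 and 15004 FPKM in wild type and 13691, 13435 and 13130 FPKM in transgenic rats. Its testis values were 3458, 3169 and 3395 FPKM in wild type and 4268, 3885 and 3145 FPKM in transgenic rats. The ratio of Mt-co1 to Mt-co3 was above 1 in each library except transgenic testis replicate 1, where it was 0.989. The ranges of the pair overlapped in each of the 4 groups.

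Mt-co2 encodes the subunit whose copper centre receives electrons from cytochrome c. It stood at 11347, 10548 and 11889 FPKM in wild-type brain and at 11266, 10060 and 9347 FPKM in transgenic brain. In testis it stood at 3101, 2870 and 3146 FPKM in wild type and at 3928, 3615 and 2954 FPKM in transgenic rats. The lowest brain library lay above the highest testis library for Mt-co1, Mt-co2 and Mt-co3 alike. Mt-co2 ranked 4 among all genes in each brain library and 9 in each testis library.

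Mt-atp6 encodes the subunit of ATP synthase that forms part of its proton channel. Its brain values were 11843, 11278 and 12325 FPKM in wild type and 11332, 10391 and 9962 FPKM in transgenic rats. Its testis values were 2372, 2188 and 2382 FPKM in wild type and 2685, 2458 and 1967 FPKM in transgenic rats. Its reading frame overlaps that of Mt-atp8, and how the authors assigned reads from the overlap is not given in the sources used here. In brain it ranked 3, above Mt-co2 in each library, whereas in testis it ranked 11 to 15, below Mt-co2 in each library.

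Mt-cyb encodes cytochrome b, which takes electrons from ubiquinol in complex III. It stood at 9012, 8475 and 9831 FPKM in wild-type brain and at 8466, 8083 and 8465 FPKM in transgenic brain. In testis it stood at 1744, 1670 and 1747 FPKM in wild type and at 2021, 1780 and 1647 FPKM in transgenic rats. It was in rank 5 in each brain library and in rank 13 to 19 in testis.

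Among the complex I messengers, Mt-nd1 and Mt-nd2 formed a middle level, well above Mt-nd3 and Mt-nd5. Mt-nd1 encodes a membrane subunit at the ubiquinone end of the complex. It stood at 8119, 7560 and 8512 FPKM in wild-type brain and at 7633, 7434 and 6833 FPKM in transgenic brain. In testis it stood at 1282, 1150 and 1201 FPKM in wild type and at 1356, 1196 and 982 FPKM in transgenic rats.

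Mt-nd2 encodes one of the subunits thought to move protons across the membrane. It stood at 8223, 8106 and 8355 FPKM in wild-type brain, the tightest values of any member in any group, and at 7323, 7052 and 6243 FPKM in transgenic brain. In testis it stood at 1500, 1321 and 1319 FPKM in wild type and at 1659, 1415 and 1074 FPKM in transgenic rats, the widest spread of the set. Mt-nd1 was below Mt-nd2 in each testis library. In brain the order was mixed: Mt-nd2 was higher in wild-type replicates 1 and 2, and Mt-nd1 in the other 4 libraries.

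Mt-nd5, which encodes a large proton-moving subunit, and Mt-nd3, which encodes a small subunit beside the ubiquinone site, were the least abundant members. Mt-nd5 stood at 2290, 2610 and 2829 FPKM in wild-type brain and at 2640, 2321 and 2255 FPKM in transgenic brain. Its testis values were 375, 386 and 408 FPKM in wild type and 480, 378 and 336 FPKM in transgenic rats. Mt-nd3 stood at 2019, 2178 and 2742 FPKM in wild-type brain and at 2433, 2125 and 1898 FPKM in transgenic brain. Its testis values were 377, 391 and 420 FPKM in wild type and 507, 422 and 374 FPKM in transgenic rats. Mt-nd5 was above Mt-nd3 in each brain library, where their ratio ran from 1.03 to 1.20, and below it in each testis library, where the ratio ran from 0.894 to 0.992.

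**Figure D2:**
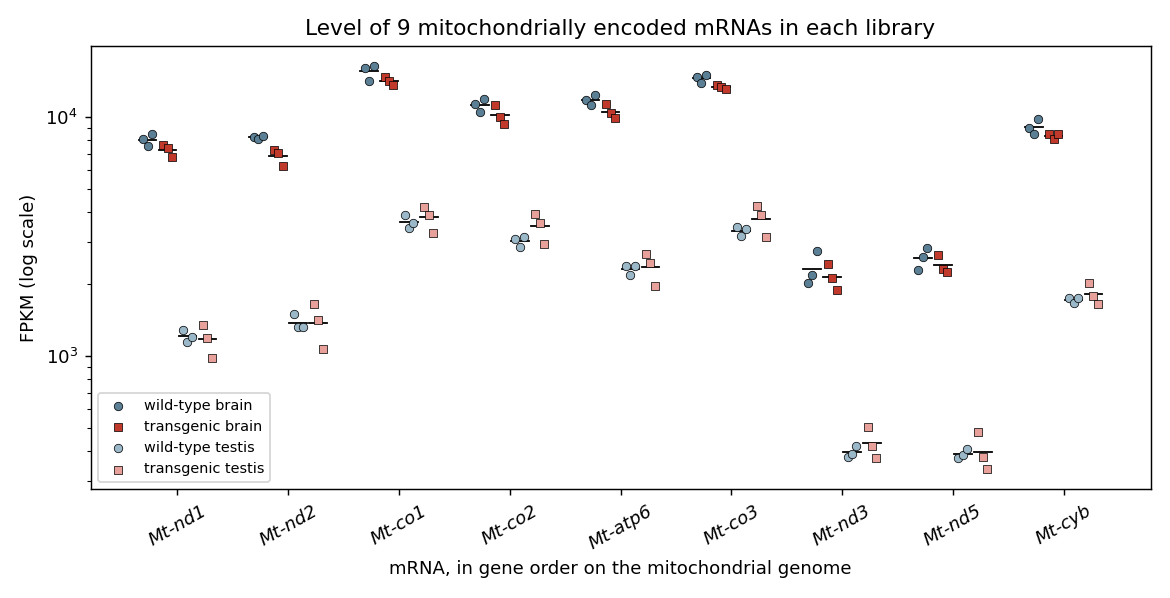
FPKM of each of the 9 mRNAs on a log axis, with 1 point per library and a line at the mean of each group of 3. The mRNAs are ordered as their genes lie along the mitochondrial genome from Mt-nd1 to Mt-cyb, and for each one the 6 brain points lie above the 6 testis points.

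FPKM divides reads by gene length and library depth, and on that basis levels were set against each other. Other differences between genes in how reads are captured or assigned were not corrected, so small steps between neighbours are uncertain. By group mean the order in both brain groups ran Mt-co1, Mt-co3, Mt-atp6, Mt-co2, Mt-cyb, then Mt-nd1 and Mt-nd2, then Mt-nd5 and Mt-nd3. The ranges of the 3 libraries overlapped between Mt-co1 and Mt-co3, between Mt-atp6 and Mt-co2, between Mt-nd1 and Mt-nd2 and between Mt-nd5 and Mt-nd3 in both brain groups. Within single libraries the order was nevertheless the same in 6 of 6 brain libraries for these pairs, except Mt-nd1 and Mt-nd2. The step from the middle level to the low pair was the widest, at 3.13-fold from Mt-nd1 to Mt-nd5 in wild-type brain and 2.86-fold from Mt-nd2 to Mt-nd5 in transgenic brain. In both testis groups the order of means was Mt-co1, Mt-co3, Mt-co2, Mt-atp6, Mt-cyb, Mt-nd2, Mt-nd1, Mt-nd3 and Mt-nd5. In wild-type testis, ranges overlapped only between Mt-co1 and Mt-co3 and between Mt-nd3 and Mt-nd5. In transgenic testis, where the replicates spread more, only the steps from Mt-co2 to Mt-atp6 (1.48-fold) and from Mt-nd1 to Mt-nd3 (2.71-fold) were free of overlap. Within single testis libraries each neighbour kept its place in 3 of 3 libraries of both groups, except Mt-co1 and Mt-co3 in transgenic testis, with 2 of 3.

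The first comparison asked how these messengers differ between the tissues in wild-type rats. All 9 were higher in brain, by 3.70-fold for Mt-co2 up to 6.65-fold for Mt-nd1. Within the set, the messengers of complex I led, followed by Mt-cyb and Mt-atp6, and those of complex IV had the smallest differences. On the log2(FPKM + 0.5) scale the difference, brain minus testis, was 2.73 for Mt-nd1 (SE 0.065), 2.72 for Mt-nd5 (SE 0.085), 2.58 for Mt-nd2 (SE 0.062) and 2.53 for Mt-nd3 (SE 0.12). It was 2.40 for Mt-cyb (SE 0.064) and 2.35 for Mt-atp6 (SE 0.057). For complex IV it was 2.12 for Mt-co3 (SE 0.054), 2.09 for Mt-co1 (SE 0.078) and 1.89 for Mt-co2 (SE 0.063).

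All 9 were called by limma in wild-type rats (Benjamini-Hochberg adjusted p from 1.08e-07 to 1.43e-06). Calls were the rule between these tissues: 89.7% of the 16115 genes tested were called, and 48.2% were called higher in brain. The fact of a call therefore says little about the members, and their size says more. The median difference was 2.40 over the 9 mRNAs against 0.23 over all genes tested. Single members exceeded between 75.9% (Mt-co2) and 85.3% (Mt-nd1) of all genes. All 3 brain libraries lay above all 3 testis libraries for each of the 9 mRNAs, as for 48.8% of the genes tested.

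The size of the tissue difference depended on how libraries were scaled. The other genes of a library summed to 380124 to 391275 FPKM in brain and to 522588 to 536808 FPKM in testis. Scaling each library to that sum raised the wild-type median of the 9 mRNAs from 2.40 to 2.86 and that of all genes from 0.23 to 0.70. Scaling to the median ratio lowered them to 1.98 and -0.20. Relative to the median of all genes, the members' median was 2.17 as deposited, 2.16 and 2.19 under these scalings.

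In transgenic rats the tissue difference had the same direction for all 9 mRNAs. It was 6.24-fold for Mt-nd1, 6.09-fold for Mt-nd5, 5.04-fold for Mt-nd2 and 4.96-fold for Mt-nd3. It was 4.61-fold for Mt-cyb, 4.49-fold for Mt-atp6, 3.75-fold for Mt-co1, 3.59-fold for Mt-co3 and 2.93-fold for Mt-co2. All 9 were called (limma, adjusted p from 2.15e-07 to 1.03e-05), where 89.1% of the 16102 genes tested were called and 47.6% were called higher in brain. The groups of 3 libraries were separate for all 9, with brain above, as for 47.7% of the genes tested. The median was 2.20 on the log2 scale against 0.21 over all genes tested. The comparisons of wild-type and of transgenic tissues share no library. In both, Mt-nd1 and Mt-nd5 had the largest and Mt-co2 the smallest difference of the 9.

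**Figure D3:**
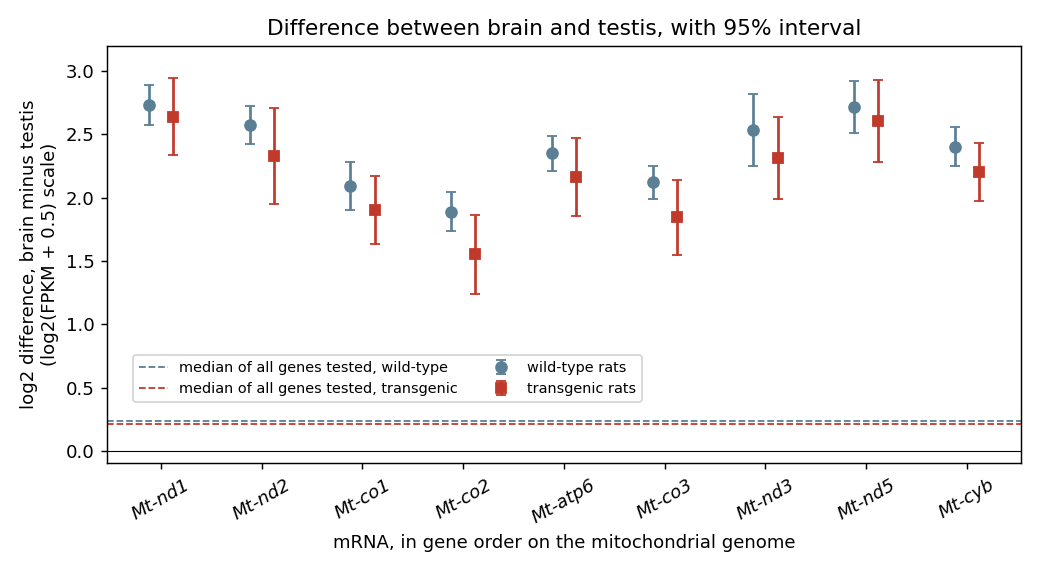
Difference between brain and testis for each mRNA, brain minus testis on the log2(FPKM + 0.5) scale, with the 95% interval of the limma fit, in wild-type (circles) and transgenic rats (squares). Dashed lines mark the median of all genes tested, 0.23 and 0.21, and the points lie between 1.55 (Mt-co2, transgenic) and 2.73 (Mt-nd1, wild type).

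Because the tissue difference was unequal, the make-up of the set differed between the tissues. This was expressed as the share of each mRNA in the summed FPKM of the 9, a measure that does not change when a whole library is rescaled. Mt-nd1 made up 9.67% ± 0.132 of the set in brain and 6.63% ± 0.363 in testis (SD, n = 6 each). Mt-nd5 made up 3.14% ± 0.215 in brain and 2.18% ± 0.144 in testis. Mt-nd2 held 9.49% ± 0.540 in brain and 7.64% ± 0.514 in testis. Mt-nd3 held 2.81% ± 0.262 and 2.30% ± 0.126, Mt-cyb 11.0% ± 0.443 and 9.83% ± 0.400, and Mt-atp6 14.1% ± 0.191 and 13.0% ± 0.371, in the same order of tissues.

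The complex IV messengers had the opposite pattern. Mt-co2 held 13.5% ± 0.368 of the set in brain and 18.1% ± 0.778 in testis, the widest difference among the 9 shares in percentage points. As a ratio of brain to testis share, Mt-nd1 (1.46) and Mt-nd5 (1.44) differed most, while the share of Mt-co2 in testis was 1.34 times that in brain. Mt-co1 held 18.7% ± 0.443 in brain and 20.7% ± 0.526 in testis, and Mt-co3 17.6% ± 0.451 and 19.7% ± 0.577 (SD, n = 6 in each tissue). The ranges of the 6 brain and 6 testis libraries did not overlap for any of the 9 shares: 6 were higher in brain and 3 in testis. When the FPKM of each of 16100 genes was divided by the same sum, 17.2% lay wholly above in brain and 66.6% wholly below. That sum was itself higher in brain, so genes without a like difference fall below by the division alone. These percents are therefore no neutral background for the 9 shares. The shares add up to a fixed total and share their libraries, so they are not independent of one another, and no test was made on them.

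Mt-nd1 and Mt-co2 had the largest and the smallest tissue difference of the set in both genotypes. The ratio of Mt-nd1 to Mt-co2 in single libraries therefore restates those differences and is no separate evidence. It was 0.716, 0.717 and 0.716 in wild-type brain and 0.678, 0.739 and 0.731 in transgenic brain. In testis it was 0.413, 0.401 and 0.382 in wild type and 0.345, 0.331 and 0.333 in transgenic rats. The summed FPKM of the 4 complex I messengers divided by that of the 3 complex IV messengers was 0.478 to 0.530 in the brain libraries and 0.295 to 0.343 in the testis libraries. Of the other pairs computed, Mt-co1 to Mt-co2 ran from 1.31 to 1.45 in brain and from 1.07 to 1.26 in testis. Mt-cyb to Mt-co1 ran from 0.560 to 0.623 in brain and from 0.446 to 0.501 in testis. Mt-nd1 to Mt-nd2 ran from 0.933 to 1.09 in brain and from 0.817 to 0.915 in testis. These ratios, and that of Mt-nd5 to Mt-nd3 given above, did not overlap between the tissues. Mt-co1 to Mt-co3 had means of 1.06 ± 0.0325 in brain and 1.05 ± 0.0508 in testis (SD, n = 6 each), with overlapping ranges.

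**Figure D4:**
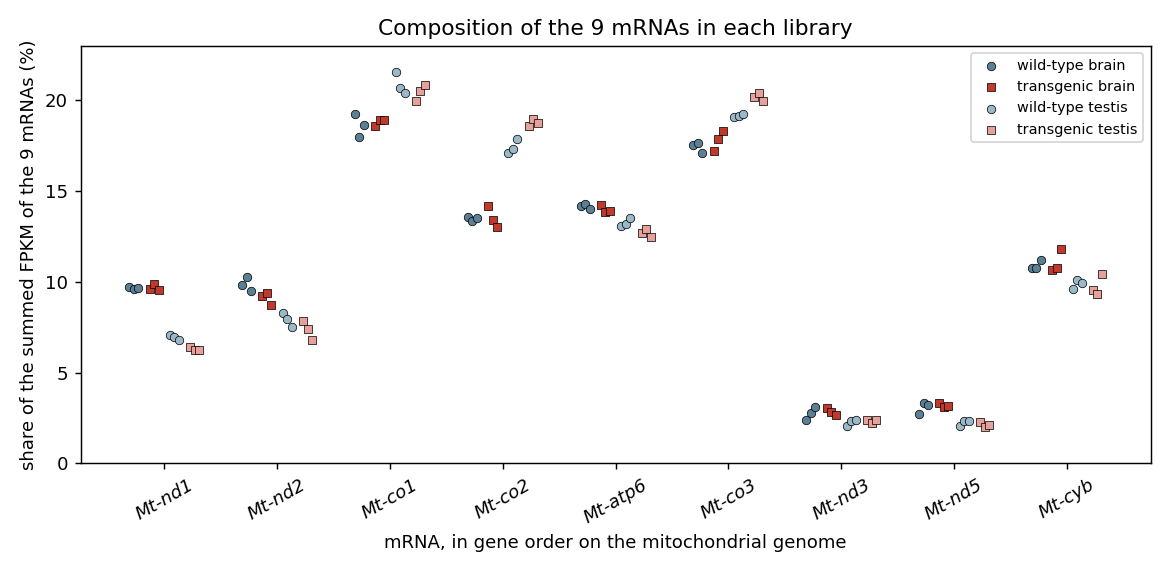
Share of each mRNA in the summed FPKM of the 9, in percent, with 1 point per library. Brain points lie above testis points for the complex I messengers of the set, Mt-cyb and Mt-atp6, and below them for Mt-co1, Mt-co2 and Mt-co3.

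The next comparison asked whether the transgene goes with a different level of these messengers in brain. The mean of each of the 9 was lower in transgenic brain, by 1.07-fold to 1.20-fold, and none passed the test. Mt-nd2 had the largest difference: 6872.52 ± 561.9 FPKM in transgenic against 8227.98 ± 124.6 FPKM in wild-type brain (SD, n = 3 each). All 3 transgenic libraries lay below all 3 wild-type ones. The log2 difference was -0.26 (SE 0.10, 95% interval -0.50 to -0.02, unadjusted p = 0.0352, limma adjusted p = 0.583).

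Mt-co3 fell short of the threshold as well, at 13418.6 ± 280.9 against 14530.3 ± 559.7 FPKM (SD, n = 3 each), with a log2 difference of -0.11 (SE 0.10, limma adjusted p = 0.885). Mt-cyb was at 8338.09 ± 220.7 against 9105.91 ± 683.1 FPKM, with a log2 difference of -0.12 (SE 0.10, limma adjusted p = 0.865). For Mt-co3 and Mt-cyb too, the groups did not overlap, the nearest transgenic and wild-type libraries of Mt-cyb being 8466 and 8475 FPKM. The other 6 members had overlapping groups, and Mt-nd3 and Mt-nd5 had the smallest differences, each -0.10.

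Over the set, 0 of 9 were called by limma (adjusted p from 0.583 to 0.939) and 1 had an unadjusted p under 0.05. With voom on the recovered reads, 0 were called and 2 had an unadjusted p under 0.05. Among the 13827 genes tested in brain, 0.116% were called and 7.87% had an unadjusted p under 0.05. A complete separation with the transgenic group below was seen for 3 of the 9 mRNAs and for 7.2% of the genes tested. The median difference was -0.13 for the 9 against 0.00 for all genes, of which 50.01% were above 0. The 9 values of a library move together, so 9 lower means are not 9 separate observations. The intervals allow a level down to 0.50 lower (Mt-nd2) and up to 0.23 higher (Mt-nd3) on the log2 scale.

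The position of single libraries was shared across the set. Wild-type replicate 3 was the highest of its group for 9 of 9 mRNAs, and transgenic replicate 1 the highest of its group for 9 of 9. Transgenic replicate 3 was the lowest of its group for 8 of 9. Wild-type replicate 2, the brain library with the most RNA of testis-restricted genes, was the lowest of its group for 7 of 9. A link between that RNA and this position was not tested. Without this library the median difference of the 9 was -0.19. Without wild-type replicate 3 the median was -0.09, with Mt-nd3 at 0.03, and without transgenic replicate 3 it was -0.10. With any library left out, 0 of 9 were called.

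In testis the log2 differences of the 9, transgenic minus wild type, ran from -0.05 to 0.19, and none passed the test. Mt-co2 stood at 3499.01 ± 497.4 FPKM in transgenic against 3039.19 ± 147.9 FPKM in wild-type testis (SD, n = 3 each), the largest difference of the set. Its log2 difference was 0.19 (SE 0.11, 95% interval -0.05 to 0.44, limma adjusted p = 0.56). Mt-co3 stood at 3765.88 ± 571.1 against 3340.5 ± 151.9 FPKM, with a log2 difference of 0.16 (SE 0.11, limma adjusted p = 0.66). Mt-nd1 was at the other end, at 1178.05 ± 187.4 against 1211.02 ± 66.53 FPKM, with a log2 difference of -0.05 (SE 0.11, limma adjusted p = 0.91). The groups overlapped for each of the 9, whereas 9.94% of the genes tested lay wholly above and 7.75% wholly below in transgenic testis.

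By limma 0 of 9 were called in testis (adjusted p from 0.56 to 0.979), and 0 had an unadjusted p under 0.05, by limma on FPKM and by voom alike. Of the 14572 genes tested, 0.576% were called and 11.1% had an unadjusted p under 0.05. The log2 differences were above 0 for 7 members and below 0 for Mt-nd1 and Mt-nd2, with a median of 0.06 against 0.02 over all genes. Among all genes tested, 54.92% were above 0. With median-ratio scaling 6 were above 0, since Mt-nd5 moved from 0.01 to -0.0022.

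The transgenic testis libraries had the largest spread of the 4 groups for 8 of the 9 mRNAs, the exception being Mt-nd3 (15.5%, against 16.4% in wild-type brain). The coefficient of variation was 10.4% to 21.3% over the 9 mRNAs there (median 15.5%), against 2.53% to 7.55% (median 4.87%) in wild-type testis. It reached 16.4% in wild-type brain (median 5.99%) and 12.5% in transgenic brain (median 6.64%). Replicate 1 was the highest and replicate 3 the lowest of the transgenic group for 9 of 9 mRNAs. Replicate 3 stood at 0.777 to 0.907 of the group mean and replicate 1 at 1.11 to 1.21. Without transgenic replicate 3 all 9 differences were above 0, with a median of 0.15. The largest was then 0.31 for Mt-co2 (limma adjusted p = 0.118), 4 of 9 had an unadjusted p under 0.05 (13.0% of all genes did), and 0 of 9 were called. Without transgenic replicate 1 the median was -0.02 and 6 of 9 differences were below 0.

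**Figure D5:**
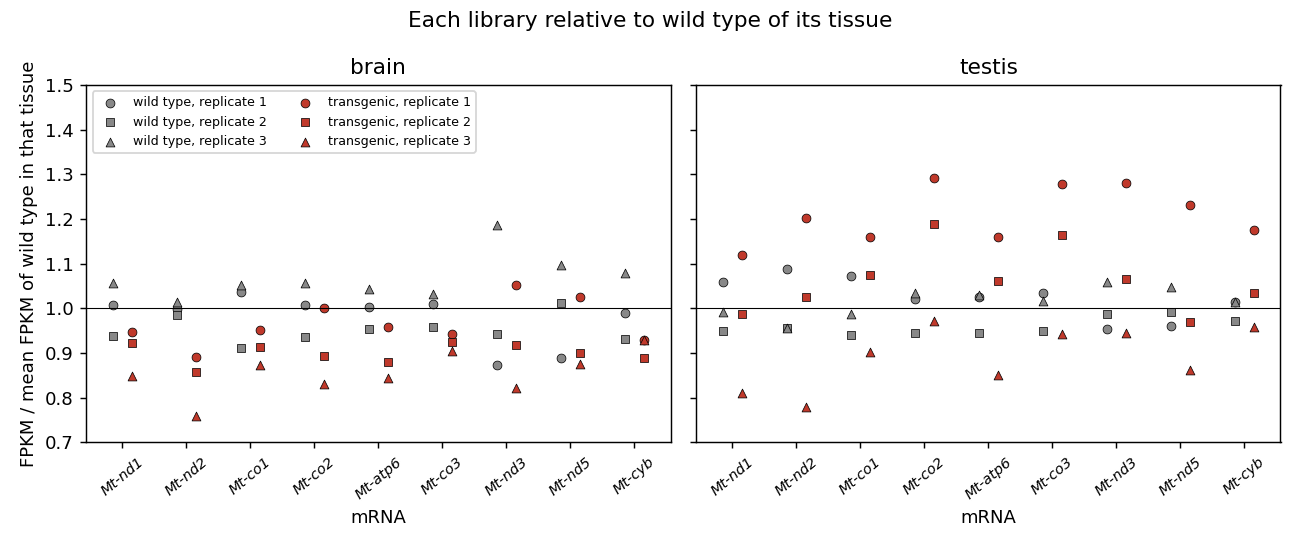
FPKM of each library divided by the mean of wild type in its tissue, for brain (left) and testis (right); grey is wild type, red is transgenic, and the marker gives the replicate number. In brain, transgenic replicate 3 reaches as low as 0.759 (Mt-nd2), and in testis transgenic replicates 1 and 3 lie apart for each mRNA, from 1.29 (Mt-co2, replicate 1) down to 0.778 (Mt-nd2, replicate 3).

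In testis the make-up of the set was also set side by side for the genotypes. The share of Mt-nd1 was 6.31% ± 0.098 in transgenic and 6.94% ± 0.128 in wild-type testis (SD, n = 3 each), and that of Mt-atp6 was 12.7% ± 0.208 and 13.3% ± 0.223. The share of Mt-co2 was 18.8% ± 0.186 in transgenic and 17.4% ± 0.383 in wild-type testis, and that of Mt-co3 was 20.2% ± 0.216 and 19.2% ± 0.1. The ranges of 3 libraries did not overlap for these 4 mRNAs, 2 lower and 2 higher in transgenic testis, and overlapped for the other 5. When all 14572 genes were divided by the same sum, 6.91% lay wholly below and 2.69% wholly above in transgenic testis. In brain the share of Mt-nd2 was 9.10% ± 0.353 in transgenic and 9.88% ± 0.389 in wild type, without overlap. The other 8 shares overlapped there, and of all 13827 genes 1.96% lay wholly below and 18.9% wholly above. The mean of the dividing sum was lower in transgenic brain and higher in transgenic testis. The division alone therefore tilts the percents of all genes upward in brain and downward in testis, and they are no neutral background for the shares. These shares were looked at after the values had been seen and were not tested.

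The last comparison set the genotype difference of brain against that of testis. For each of the 9 mRNAs, the transgenic minus wild-type difference was lower in brain than in testis, and none passed the test. That difference was higher in brain for 42.84% of all genes tested. The 9 values of a library move together, so 9 lower values are not 9 separate observations. The interaction on the log2 scale was -0.34 for Mt-co2 (SE 0.15, 95% interval -0.67 to 0.0006, limma adjusted p = 0.62) and -0.28 for Mt-co3 (SE 0.14, limma adjusted p = 0.697). The smallest was -0.09 for Mt-nd1 (SE 0.15, limma adjusted p = 0.95). By limma 0 of 9 were called and 0 had an unadjusted p under 0.05. With voom 0 were called and 2 had an unadjusted p under 0.05. Of the 10917 genes tested, 0.421% were called and 8.04% had an unadjusted p under 0.05. The median was -0.20 over the 9 and -0.03 over all genes. Without transgenic testis replicate 3 the median of the 9 was -0.31, 6 had an unadjusted p under 0.05 (8.66% of all genes did) and 0 were called. Without transgenic testis replicate 1 the median was -0.10, with Mt-nd1 and Mt-nd5 above 0.

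Genes with a pattern most like that of the set were sought among 8162 other genes whose mean reached 10 FPKM. Likeness was Pearson's r, over the 12 libraries, with the mean log2(FPKM + 0.5) of the 9 mRNAs. The highest were ENSRNOG00000028014 (r = 0.999, 3.67-fold higher in brain than in testis) and ENSRNOG00000033134 (r = 0.998, 8.11-fold higher in brain), whose names were not paired with these identifiers. The points fall into 6 libraries of each tissue and share depth, and 37.2% of the genes compared had an r over 0.95.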

How the data were processed

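RNA from brain and testis was sequenced as TruSeq libraries made from total RNA, per the labels' protocols. The authors deposited FPKM values (fragments per kilobase of gene and per unit of library depth). The submitters' processing notes name Bowtie 1.0.1 and the build Rnor_6.0. No source used here gives the counter, the annotation or the treatment of reads that match more than 1 place, such as nuclear copies of mitochondrial DNA, and the members are uncertain to that extent.

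FPKM steps gave back whole reads and gene lengths for 100% of the 25908 genes (within 0.002 reads). Member lengths were 348 to 1830 bp. Reads in listed genes made up at least 99.9865% of every total. Of 1617 genes whose values were moved by about 1%, 0% came out whole. These were only genes with values above 0 in several libraries. A fitting length is easier to find for genes with values in few libraries, so the percents are not on like genes. Chi-square per gene between replicates was 4.53 to 13.4, and each library counted as 1 sample.

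Groups were compared by limma 3.58.1 (R 4.3.3) on log2(FPKM + 0.5), its prior variance following mean intensity. Genes entered with a mean FPKM of 1 or more, for the interaction within both tissues. Tests were two-sided, Benjamini-Hochberg adjusted over all genes tested and called under 0.05. Fold values come from these fits and slightly understate changes of low genes. Shares, sums and ratios came from Python 3.11.15 with pandas 2.3.3, numpy 2.4.6 and scipy 1.17.1. Plots came from matplotlib 3.10.9. The code was tested on simulated data. Of 100 simulated 2-fold changes, 55 were called in brain genotype, 55 in testis genotype and 18 for the interaction. Of 100 4-fold changes, 89, 90 and 76 were called in the same order. Smaller changes, such as those of the members by genotype, were not simulated, so the absence of a call does not show equal levels.

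The members, lists and tests were chosen with earlier results of these data known. Named genes were the 9 members and the 5 other genes most like them, of which 2 are printed. Lists of nuclear respiratory genes, other mitochondrial genes and cell type markers were not analysed here, because 0 of the identifiers matched the 47357 genes of the reference table (GRCr8). That table and its promoter sequences held 0 of the members, so no sequence is shown. Alternatives were the replicate number as a block, other pseudocounts, filters and scalings, no intensity trend, all libraries in 1 fit, voom on the recovered reads, and leaving out each library.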

Additional observations from a re-analysis of the deposited data

How the results depend on the processing

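The counts of members called did not change under any of the 16 alternatives of each comparison (21 for the interaction): 9 of 9 in each tissue comparison, and 0 of 9 in the genotype comparisons and the interaction, also without each library in turn. Adjusted p (limma) ran up to 0.000484 in the tissue comparisons and down to 0.326 in brain, 0.118 in testis and 0.139 for the interaction. Calls over all genes were less stable: 0 to 57 in brain (16 as reported), 20 to 247 in testis (84) and 1 to 103 for the interaction (46).

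The ratio of summed FPKM, brain to testis, was 4.79 in wild-type rats, 3.58 with median-ratio scaling and 6.56 with scaling to the other genes. In transgenic rats it was 4.05, 3.03 and 5.53. Leaving out a library gave 4.66 to 4.92 and 3.76 to 4.33. The transgenic to wild-type ratio was 0.905 in brain (0.880 to 0.929 without a library) and 1.07 in testis (0.999 to 1.15).

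Signs turned only for differences that were not called. With median-ratio scaling Mt-nd5 in testis was -0.0022. Without a library, the testis ranges were -0.16 to 0.0739 for Mt-nd1, -0.16 to 0.15 for Mt-nd2, -0.13 to 0.13 for Mt-nd5, -0.0065 to 0.14 for Mt-cyb, -0.0208 to 0.16 for Mt-co1 and -0.0724 to 0.15 for Mt-atp6. In brain Mt-nd3 ran from -0.19 to 0.0301, and for the interaction Mt-nd1 ran from -0.22 to 0.0151 and Mt-nd5 from -0.23 to 0.031. The cause was not tested.

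With the replicate number as a block, 9 of 9 members were called in each tissue comparison and 0 of 9 elsewhere. Over all genes, the block gave 0 calls in brain, 39 in testis and 1 for the interaction. In that fit 3 of 9 members had an unadjusted p under 0.05 for the interaction (8.41% of all genes did). The lowest was that of Mt-co2 (limma, unadjusted p = 0.00273, adjusted p = 0.271). Same-numbered libraries shared deviations from their group means weakly (r from -0.219 to 0.183), and at most 1 of 3 pairs in a comparison passed 0.1. Weak sharing cannot exclude that same-numbered libraries came from 1 rat, so it does not decide the pairing. The main fits did not use the numbers, and the block above is the alternative. In the testis genotype comparison 6 of 6 samples correlated best with their own number, a hint from the data and not the design. The count was 4 of 6 for wild-type tissues, 3 of 6 for transgenic tissues and 0 of 6 for brain genotype. Among the members, transgenic replicate 1 was the highest of its group for 9 of 9 in both tissues. Transgenic replicate 3 was the lowest for 8 of 9 in brain and 9 of 9 in testis. Wild-type replicate 3 was the highest for 9 of 9 in brain and 5 of 9 in testis. The labels do not say whether same-numbered libraries came from 1 rat.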
